A study of Mus musculus with 6 samples.

Results

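The alpha, mu and theta classes of glutathione transferases were read in liver RNA-Seq as 10 genes, Gsta1, Gsta2, Gsta3, Gsta4, Gstm1, Gstm2, Gstm3, Gstm4, Gstm6 and Gstt1, which were taken by gene symbol from the 34745 genes of the count table. All 10 were present and all 10 passed the filter on low counts that left 13734 genes for the test. The mice were WT, the methods name male C57BL/6J mice of 8 to 10 weeks, and all were fasted for 12 hours and then given acetaminophen (APAP, 300 mg/kg, 12 hours before sacrifice) or saline by intraperitoneal injection. Of 6 labelled livers, 3 per group, 5 libraries were analysed: APAP replicates 1 and 3, and 3 libraries named WT1, WT2 and WT3, taken here as the saline group since every remaining count column is named ApAp. APAP replicate 2 was not analysed here. The labels do not say that each library came from a separate mouse, so p-values measure the spread between these libraries.

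Glutathione transferases join the thiol of glutathione to electrophiles, which makes them soluble and ready for export. In an APAP overdose, cytochrome P450 enzymes turn the drug into the quinone imine NAPQI, which is cleared by conjugation to glutathione until hepatocyte glutathione runs down. The cytosolic enzymes are dimers of subunits of the same class, and several of their genes are known targets of the transcription factor NRF2, which responds to electrophiles, and of the xenobiotic receptors PXR and CAR.

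Total counts per library were between 13378445 and 15976339, and levels are given as CPM (counts scaled to library size) after edgeR's TMM normalization. Sex-linked transcripts separated the groups. Xist measured 0.764 and 1.73 CPM after APAP but 289.6, 914 and 882 CPM in WT1 to WT3, whereas the Y-linked gene Ddx3y measured 79.0 and 61.7 CPM after APAP but 0, 0 and 0.0668 CPM in the saline livers. Of 10 genes known to be female-biased in mouse liver, 7 were lower with APAP at an adjusted p under 0.05 by edgeR's quasi-likelihood test. Of 10 male-biased genes, 0 passed, and 7 had a higher fitted level. WT1 to WT3 thus had the pattern of female livers and the APAP libraries that of male livers, whereas the methods name male mice only. The reason for this conflict was not tested. The sex-linked difference falls along the treatment in all 5 libraries, so that sex and APAP cannot be told apart in any comparison below. As a check of the tissue, 6 hepatocyte genes summed to 68266 and 116168 CPM with APAP and to between 119701 and 169854 CPM with saline. Of these genes, 0 passed the test, but 5 had a lower fitted level with APAP (median log2 fold change of the 6, -0.69).

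The alpha genes are shown first as sequence, because the 2 that rose with APAP are nearly the same gene on the coding level. The coding sequences of Gsta1 and Gsta2 were 97.6% identical, with 13 differing bases and 3 bases in gaps over their whole length. Coding bases 373 to 492 of both, from the GENCODE M21 transcripts (GRCm38), hold 5 of these differences, which are given in capitals:
Gsta1: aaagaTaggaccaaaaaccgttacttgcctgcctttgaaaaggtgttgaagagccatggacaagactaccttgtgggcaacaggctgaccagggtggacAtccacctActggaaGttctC
Gsta2: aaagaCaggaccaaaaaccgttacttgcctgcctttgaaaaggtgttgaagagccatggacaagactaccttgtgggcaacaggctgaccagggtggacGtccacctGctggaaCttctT
Gsta3, the main alpha transcript of the saline livers, was 74.1% identical to Gsta1. Over coding bases 436 to 555 of Gsta1, the stretch of Gsta3 that aligned to it differed at 40 bases, again in capitals in both lines:
Gsta1: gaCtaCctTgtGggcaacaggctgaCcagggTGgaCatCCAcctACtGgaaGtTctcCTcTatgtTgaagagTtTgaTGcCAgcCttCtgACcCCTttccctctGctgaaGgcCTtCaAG
Gsta3: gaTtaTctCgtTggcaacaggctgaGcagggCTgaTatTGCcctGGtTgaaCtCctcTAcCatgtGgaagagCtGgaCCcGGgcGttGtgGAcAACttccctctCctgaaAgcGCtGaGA
Counts for Gsta1 and Gsta2 are therefore uncertain as single genes. Of the 50-base words of the longest coding transcript of Gsta1, 89.7% also occurred in transcripts of other genes. They included 82.9% in Gm3776, whose identifier is not in the count table, and 44.6% in Gsta2. For Gsta2 the share in other genes was 64.2%, with 44.8% in Gsta1 and 44.5% in Gm10639. The latter also held 30.8% of the words of Gsta1. Gm10639 is in the count table, but its counts were not included here. Both Gsta3 and Gsta4 shared 0% of such words with any other gene, so their counts do not have this limit.

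With APAP, Gsta1 and Gsta2 rose while 3 other members, Gstm2, Gstm6 and Gstt1, fell (adjusted p under 0.05 over all tested genes, edgeR's quasi-likelihood test). Another 5, Gsta3, Gsta4, Gstm1, Gstm3 and Gstm4, did not pass, and their fitted log2 fold changes were between -1.99 and -0.70. Over all tested genes, 3.70% were called higher and 3.53% lower. At the thresholds named for the study (1.5-fold or more, p under 0.05 before adjustment), 2 members were higher and 6 lower, where 12.3% and 11.2% of all tested genes were. The 2 groups did not overlap for 2 members that were higher with APAP and 5 that were lower, against 24.0% and 20.1% of all tested genes. The median log2 fold change was -1.12 over the 10 members and 0.03 over all tested genes.

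**Figure D1:**
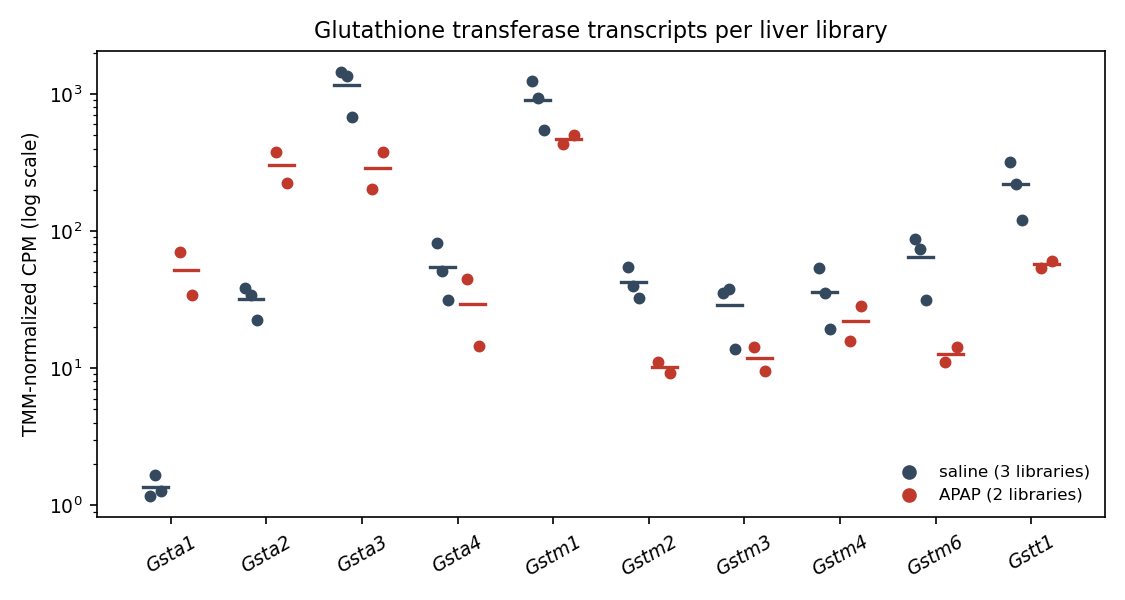
TMM-normalized CPM of the 10 transferase genes on a log axis, with 1 point per library (3 saline, 2 APAP) and a bar at the mean of each group. Gsta1 and Gsta2 lie higher in both APAP libraries than in every saline library, whereas Gsta3, Gstm1, Gstm2, Gstm6 and Gstt1 lie lower in both.

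In the alpha class, Gsta1 (ENSMUSG00000074183, chromosome 9, 78230656 to 78242684, plus strand) encodes a subunit known to be scarce in untreated mouse liver and inducible by antioxidants. It was at 70.3 CPM in APAP replicate 1 and 34.3 CPM in APAP replicate 3, and at 1.17, 1.66 and 1.27 CPM in WT1, WT2 and WT3. These levels rest on 1196 and 555 counts with APAP and on 13, 25 and 19 counts with saline. Both APAP libraries were far above all saline libraries, and the ratio of the means was 38.3 (52.3 ± 25.4 CPM, SD, n = 2, against 1.37 ± 0.261 CPM, n = 3). The fitted log2 fold change was 5.24 (SE 0.38, adjusted p = 0.00182, edgeR's quasi-likelihood test). Without APAP replicate 1 it was 4.64, the lowest of 13 alternative analyses, and the gene was called in all 13.

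Gsta2 (ENSMUSG00000057933, chromosome 9, 78331018 to 78355788, minus strand) encodes the close relative that was already expressed with saline. Its level was 379 and 222 CPM in the APAP libraries and 38.5, 34.3 and 22.3 CPM in WT1, WT2 and WT3. The groups were well apart, with a ratio of the means of 9.48 and a fitted log2 fold change of 3.25 (SE 0.34, adjusted p = 0.00521, edgeR's quasi-likelihood test). APAP replicate 1 was the higher of the 2 APAP libraries for both Gsta1 and Gsta2. The difference between the 2 fold changes was not tested, because reads may be split between these genes.

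Gsta3 (ENSMUSG00000025934, chromosome 1, 21240589 to 21265661, plus strand), known for its activity toward the epoxide of aflatoxin in mouse liver, lies apart from the other alpha genes. It was at 202 and 379 CPM in the APAP livers, compared with 1446, 1346 and 674 CPM in the saline livers. The groups did not overlap and the mean was 3.98-fold lower with APAP, but the gene missed the threshold (log2 fold change -1.99, SE 0.47, adjusted p = 0.0519, edgeR's quasi-likelihood test). Over 13 alternative analyses its log2 fold change was between -2.53 and -1.60, and it was called in 7, including without WT3, the saline library nearest to the APAP libraries.

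Gsta4 (ENSMUSG00000032348, chromosome 9, 78191966 to 78209348, plus strand) encodes the alpha enzyme known to conjugate 4-hydroxynonenal, a product of lipid peroxidation. Its levels of 44.8 and 14.4 CPM with APAP overlapped those of 81.2, 51.3 and 31.5 CPM with saline. The log2 fold change was -0.88 (SE 0.56, adjusted p = 0.383, edgeR's quasi-likelihood test).

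The makeup of the alpha class differed between the groups. Gsta1 and Gsta2 together made up 2.53%, 2.51% and 3.23% of the alpha counts in WT1, WT2 and WT3. With APAP they made up 64.5% (95% Wilson interval 63.7 to 65.4) and 39.5% (38.6 to 40.4), so neither APAP library overlapped the saline range. Gsta3 held 92.3%, 93.9% and 92.4% of the alpha counts with saline and 29.0% and 58.3% with APAP. The intervals cover counting error only, since reads carry no molecular identifiers, and they are far narrower than the gap between the 2 APAP libraries. The summed level of the alpha class was 696 and 650.3 CPM with APAP and 1567, 1433 and 729 CPM with saline, a mean of 54.2% of that of saline. For Gsta3 and Gsta4 alone, the mean sum was 26.5% of that of saline.

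**Figure D2:**
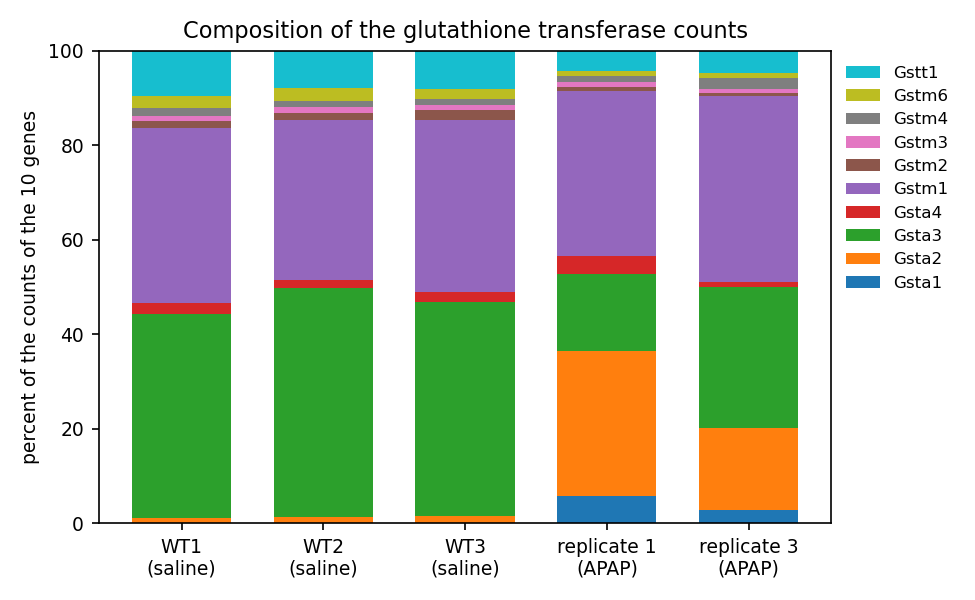
Percent of the counts of the 10 transferase genes taken by each gene, as stacked bars from 0 to 100 for 3 saline and 2 APAP libraries. The Gsta1 and Gsta2 segments widen with APAP in both libraries, beside a narrower Gsta3 segment, while the Gstm1 segment stays the largest of the mu class in all 5 libraries.

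Sequence before RefSeq starts of alpha genes is shown because Gsta1 and Gsta2 rose together while Gsta3 had a lower fitted level. Of the 10 members, 9 had an entry in the RefSeq promoter table (GRCm38.p6). Gsta4 had none. The printed parts leave out annotated exons. The part of Gsta2 lies inside the annotated span of the gene (78331018 to 78355788, minus strand), before a RefSeq start within that span. For Gsta1 (chr9:78230419-78230655, plus strand) and Gsta2 (chr9:78347169-78347395, minus strand), capitals mark the longest run common to both, of 29 bases:
Gsta1: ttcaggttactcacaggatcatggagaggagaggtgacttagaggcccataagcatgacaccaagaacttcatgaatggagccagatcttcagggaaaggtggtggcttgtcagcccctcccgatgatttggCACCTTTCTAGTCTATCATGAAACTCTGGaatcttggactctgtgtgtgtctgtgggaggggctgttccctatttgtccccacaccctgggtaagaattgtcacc
Gsta2: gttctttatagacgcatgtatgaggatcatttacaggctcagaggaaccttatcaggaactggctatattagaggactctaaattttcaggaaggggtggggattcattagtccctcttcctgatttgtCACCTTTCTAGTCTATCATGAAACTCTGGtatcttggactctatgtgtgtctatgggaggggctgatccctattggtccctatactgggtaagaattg
For Gsta3 (chr1:21240335-21240584, plus strand), capitals mark its match to the core of the antioxidant response element, the site bound by NRF2 with a small MAF protein:
Gsta3: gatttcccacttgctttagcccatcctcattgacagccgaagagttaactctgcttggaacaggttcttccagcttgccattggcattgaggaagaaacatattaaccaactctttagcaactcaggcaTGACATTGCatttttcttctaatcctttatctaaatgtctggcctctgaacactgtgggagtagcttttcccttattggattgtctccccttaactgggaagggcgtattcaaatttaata
Over the printed parts of 237 (Gsta1), 227 (Gsta2) and 250 bases (Gsta3), aligned end to end, Gsta1 and Gsta2 were 69.5% identical. Gsta1 was 51.5% and Gsta2 49.8% identical to Gsta3. The core TGACNNNGC was searched on both strands in windows from 250 bases before to 50 after each start. It was found for 1 of the 9 members, Gsta3, and for 14.0% of all 27025 genes with a window. The nuclear receptor half-site AGGTCA was found for 1 of the 9, Gstm1, and for 18.1% of these genes. The half-site AGTTCA was found for 0 of the 9 and for 15.7% of these genes. The windows are short, and a missing match says only that these letters do not occur in them.

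The 5 mu genes of the list sit in 1 cluster of 149 kb on chromosome 3, in the order Gstm5, Gstm7, Gstm6, Gstm3, Gstm2, Gstm1 and Gstm4 when the neighbouring genes Gstm5 and Gstm7 are counted, and all but Gstm5 are on the minus strand. None was called higher and 2, Gstm2 and Gstm6, fell. Gstm1 (ENSMUSG00000058135, 108012255 to 108017973), the main mu transcript of mouse liver, was at 431 and 502 CPM in the APAP livers, compared with 1238, 939.98 and 544 CPM in the saline livers. The groups lay close to each other without overlap, and the gene did not pass (log2 fold change -0.96, SE 0.39, adjusted p = 0.188, edgeR's quasi-likelihood test). It was called in 0 of 13 alternative analyses.

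Gstm2 (ENSMUSG00000040562, 107981702 to 107986453), whose product is known to conjugate aminochrome and other quinones, was at 11.05 and 9.27 CPM in the APAP livers, compared with 54.6, 40.1 and 32.5 CPM in the saline livers. It fell by 2.06 on the log2 scale (SE 0.29, adjusted p = 0.0125, edgeR's quasi-likelihood test), a mean 4.17-fold lower, with a wide gap between the groups. The call was lost without APAP replicate 1, APAP replicate 3 or WT2, where the largest adjusted p was 0.0831. Gstm6 (ENSMUSG00000068762, 107938847 to 107943749) had 11.1 and 14.3 CPM in the APAP livers, compared with 87.9, 73.7 and 31.5 CPM in the saline livers. It had the lowest fitted fold change of the 10 members in this test, and fell by 2.34 on the log2 scale (SE 0.46, adjusted p = 0.0330, edgeR's quasi-likelihood test), and its call was lost without APAP replicate 1, APAP replicate 3, WT1 or WT2 (largest adjusted p 0.198).

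For Gstm3 (ENSMUSG00000004038, 107963696 to 107969283), levels were 14.3 and 9.58 CPM with APAP and 35.3, 38.0 and 13.9 CPM with saline. WT3 lay between the 2 APAP libraries, and the log2 fold change of -1.28 (SE 0.46) did not pass (adjusted p = 0.143, edgeR's quasi-likelihood test). Without WT3 the gene was called, at a log2 fold change of -1.62. For Gstm4 (ENSMUSG00000027890, 108040408 to 108044894), the levels of 15.8 and 28.4 CPM with APAP overlapped those of 53.5, 35.1 and 19.4 CPM with saline, and the log2 fold change was -0.70 (SE 0.46, adjusted p = 0.395, edgeR's quasi-likelihood test).

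The summed level of the 5 mu genes was 483 and 564 CPM with APAP and 1469, 1127 and 641 CPM with saline, a mean of 48.5% of that of saline. Gstm1 held 89.2% and 89.1% of the mu counts with APAP and 84.3%, 83.4% and 84.8% with saline. Gstm6 held 2.30% and 2.53% with APAP and between 4.92% and 6.54% with saline. Within the class the coding sequences were between 76.2% and 89.4% identical, and Gstm1 and Gstm3 were the closest pair. Of the 50-base words, 23.1% of those of Gstm1 and 28.8% of those of Gstm3 occurred in other genes, and 0% of those of Gstm4.

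Gstt1 (ENSMUSG00000001663, chromosome 10, 75783813 to 75798584, minus strand), the theta enzyme known for small halogenated substrates such as dichloromethane, lies in a cluster of 60.8 kb with Gstt3, Gstt4 and Gstt2. It was at 53.8 and 60.6 CPM in the APAP livers, compared with 319, 220.3 and 121 CPM in the saline livers. The APAP libraries were close to each other and below all saline libraries, and Gstt1 fell by 1.94 on the log2 scale (SE 0.43, adjusted p = 0.0428, edgeR's quasi-likelihood test), to 26.0% of the saline mean. The call was lost without APAP replicate 1, APAP replicate 3, WT1 or WT2 (largest adjusted p 0.230). Gstt1 shared 0% of its 50-base words with other genes.

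Among the saline libraries, 9 of the 10 members were lowest in WT3 and 8 were highest in WT1 after TMM scaling. The exception at the low end was Gsta1. The TMM factors were 0.783, 0.980 and 0.938 for WT1, WT2 and WT3, so the place of WT1 depends in part on the scaling. Gsta3, for example, had 16135 of 14259730 counts in WT1 and 20265 of 15372166 in WT2. Of the 2 APAP libraries, replicate 1 was higher for 5 members, Gsta1, Gsta2, Gsta4, Gstm2 and Gstm3, and replicate 3 for the other 5. Together the 10 members summed to 1233 and 1275 CPM with APAP and to 3355, 2781 and 1491 CPM with saline. The APAP mean was 49.3% of that of saline, and both APAP libraries were below WT3.

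Levels of different genes were compared as CPM per kb of the longest coding transcript. With saline, the order of the mean levels was Gsta3 (793 CPM per kb), Gstm1 (704), Gstt1 (199), Gsta4 (56.0), Gstm6 (54.6), Gstm2 (39.8), Gsta2 (36.4), Gstm3 (22.2), Gstm4 (21.1) and Gsta1 (1.56). Neighbours in this order overlapped over the libraries except Gstm1 with Gstt1, Gstt1 with Gsta4, and Gstm4 with Gsta1. With APAP the order was Gstm1 (362 CPM per kb), Gsta2 (346), Gsta3 (199), Gsta1 (59.8), Gstt1 (51.8), Gsta4 (30.3), Gstm4 (12.9), Gstm6 (10.8), Gstm2 (9.55) and Gstm3 (9.10). There, only Gsta3 with Gsta1 and Gstt1 with Gsta4 did not overlap. Gsta1 thus stood at place 10 with saline and at place 4 with APAP.

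Beside these members, 12 other glutathione transferase genes were tested, of which 0 were called higher and 3, Gstm7, Gstt3 and Gstk1, fell. Their median log2 fold change was -0.38. Gstm7, which lies beside Gstm6, was at 16.4 and 21.1 CPM in the APAP livers, compared with 71.0, 62.8 and 39.6 CPM in the saline livers, and fell by 1.62 (SE 0.31, adjusted p = 0.0299, edgeR's quasi-likelihood test). Gstt3, which lies beside Gstt1, was at 30.6 and 19.0 CPM in the APAP livers, compared with 112, 87.0 and 95.2 CPM in the saline livers, and fell by 1.98 (SE 0.28, adjusted p = 0.0135). Gstt2, at the far end of the same cluster, was at 51.4 and 57.9 CPM in the APAP livers, compared with 33.4, 19.5 and 18.4 CPM in the saline livers, so that the groups did not overlap, at a log2 fold change of 1.20 that missed the threshold (adjusted p = 0.0581). Gstk1, the kappa enzyme of mitochondria and peroxisomes, was at 43.0 and 40.7 CPM in the APAP livers, compared with 121, 96.4 and 103 CPM in the saline livers, and fell by 1.35 (SE 0.22, adjusted p = 0.0181).

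Gstp1, the pi enzyme, which is known to be higher in male than in female mouse liver, was at 350 and 705 CPM in the APAP livers, compared with 237, 181 and 184 CPM in the saline livers. Its log2 fold change was 1.39 (SE 0.34, adjusted p = 0.0576, edgeR's quasi-likelihood test), and 62.3% of its 50-base words also occurred in Gstp2. Gstz1, the enzyme of tyrosine breakdown, had a log2 fold change of -0.92 (adjusted p = 0.0817). The microsomal enzyme Mgst1 was the most abundant of these genes, at 1402 and 1451 CPM in the APAP livers and between 1592 and 1924 CPM with saline, with a log2 fold change of -0.28 (adjusted p = 0.585). For Mgst3 it was -0.98 (adjusted p = 0.0951), for Gsto1 -0.41 (adjusted p = 0.463), for Gstm5 0.22 (adjusted p = 0.783), for Hpgds 1.04 (adjusted p = 0.442) and for Gstp2 -0.34 (adjusted p = 0.840), the last 2 at under 3 CPM in every library. Gstt4, Gsto2 and Mgst2 had too few counts to be tested. All 25 measured transferases summed to 3571 and 4048 CPM with APAP and to between 4234 and 6773 CPM with saline, a mean of 68.4% of that of saline.

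**Figure D3:**
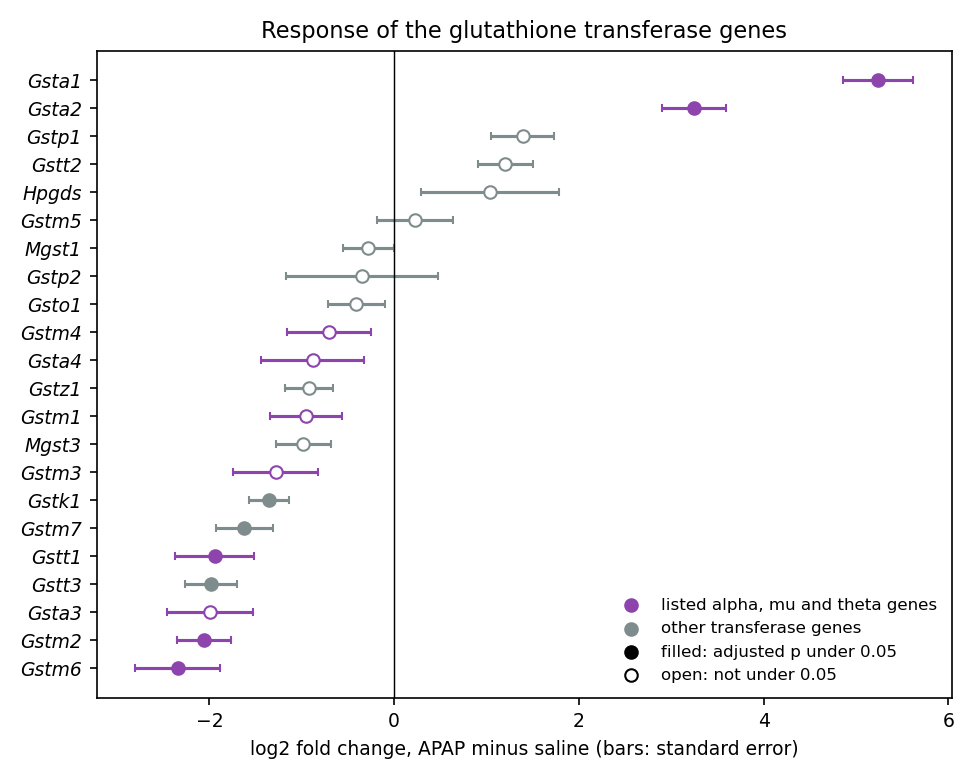
Fitted log2 fold change (APAP minus saline) with its standard error for the 22 transferase genes tested, with filled points for an adjusted p under 0.05 by edgeR's quasi-likelihood test. Only Gsta1 at 5.24 and Gsta2 at 3.25 are called higher, and the called lower genes lie between -2.34 and -1.35.

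Genes of the glutathione supply were read as the other side of the conjugation reaction. Gsr, the reductase that recycles oxidized glutathione, rose from 73.1, 64.8 and 66.1 CPM to 178 and 156 CPM (log2 fold change 1.30, SE 0.20, adjusted p = 0.0167, edgeR's quasi-likelihood test). Slc7a11, the cystine importer, rose from 1, 0 and 0 counts in the saline libraries to 42.0 and 17.6 CPM. Against a floor of 3 counts in the shallowest saline library, the APAP mean was at least 111-fold higher, and APAP replicate 3 alone at least 65.5-fold higher (adjusted p = 0.00194). Gclc, the catalytic subunit of the rate-limiting enzyme of glutathione synthesis, was higher without overlap (694 and 943 CPM against 438, 565 and 317 CPM) but did not pass (log2 fold change 0.90, adjusted p = 0.148). Its partner Gclm (130 and 161 CPM against 330, 175 and 140 CPM) overlapped between the groups, at a log2 fold change of -0.56 (adjusted p = 0.434). For Gss, glutathione synthetase, it was 0.53 (adjusted p = 0.323).

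Of 13 tested genes of conjugate export and of the mercapturate pathway, 0 were called higher and 2 fell. A higher fitted level was found for 7 of the 13. Ggt6, a member of the gamma-glutamyltransferase family, fell by 1.71 (adjusted p = 0.0247, edgeR's quasi-likelihood test). Acy1, an aminoacylase that removes acetyl groups from acetylated amino acids, fell by 1.40 (adjusted p = 0.0185, same test). Abcc2, the canalicular exporter of glutathione conjugates and the most abundant of the 13, was at 446 and 790.4 CPM in the APAP livers, compared with 587, 829 and 987 CPM in the saline livers (log2 fold change -0.37, adjusted p = 0.580). Of 4 genes of glutathione breakdown, 0 passed. Their most abundant member was Oplah, the oxoprolinase, at a log2 fold change of 0.25 (adjusted p = 0.718).

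Of 7 genes of the NRF2 axis, 3 rose. These were Maff and Mafk, which encode small MAF partners of NRF2, by 4.04 (adjusted p = 0.0128, edgeR's quasi-likelihood test) and 2.11 (adjusted p = 0.0130) on the log2 scale, and Sqstm1, the p62 adaptor that binds KEAP1, by 1.35 (adjusted p = 0.0443). Sqstm1 was the most abundant of the list, at 891 and 1025 CPM in the APAP livers, compared with 492, 331 and 302 CPM in the saline livers. The transcript of NRF2 itself (Nfe2l2) had a log2 fold change of 0.30 (adjusted p = 0.427) and that of its inhibitor Keap1 one of 0.01 (adjusted p = 0.984).

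Among 14 NRF2 targets outside the transferases, 4 rose and 1 fell, with a median log2 fold change of 0.97. Srxn1, sulfiredoxin, was the most abundant of those that rose, at 941 and 598 CPM against 44.3, 47.1 and 45.3 CPM (log2 fold change 4.08, adjusted p = 0.00181, edgeR's quasi-likelihood test). The others that rose were Pgd of the pentose phosphate pathway (2.15, adjusted p = 0.00521), heme oxygenase Hmox1 (1.89, adjusted p = 0.0358) and Slc7a11. Ephx1, the microsomal epoxide hydrolase, fell by 1.38 (adjusted p = 0.0492). Gsta1 and Gsta2 thus had the direction of these 4 targets while the fitted direction of the other 8 members, of which 3 passed, was that of Ephx1; the difference between the lists was not tested. Of 6 receptors and hepatocyte factors that act on transferase genes, 0 passed, and all 6 had a lower fitted level (median log2 fold change -0.64). Hnf4a was the most abundant of them (-0.95, adjusted p = 0.172).

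**Figure D4:**
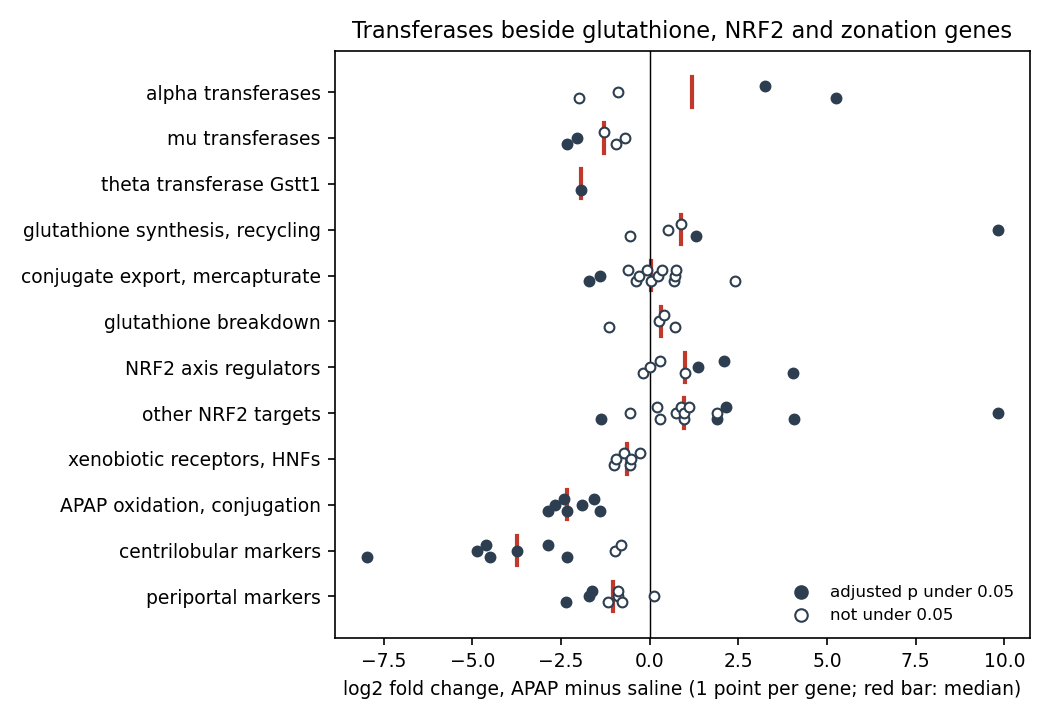
Fitted log2 fold change (APAP minus saline) of each tested gene of 12 lists, with filled points for an adjusted p under 0.05 by edgeR's quasi-likelihood test and a red bar at the median. The alpha genes lie on both sides of 0, the mu genes and Gstt1 lie below 0, and the median of the other NRF2 targets is 0.97 against -2.34 for the genes of APAP oxidation and conjugation.

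Cell markers moved with these changes. In bulk liver, fewer cells of a type and less RNA per cell cannot be told apart. Of 9 markers of centrilobular hepatocytes, the cells around the central vein where APAP is mainly oxidized, 7 fell (median log2 fold change -3.74). Their summed level was 1024 and 1951 CPM with APAP and 12134, 8443 and 7564 CPM with saline. Like that of the summed members, it was highest in WT1 and lowest in WT3. This order was not shared by every marker. Cyp2e1 alone gave 8353, 5265 and 4363 CPM of the saline sums, and Glul was lowest in WT2 (1491, 965 and 1261 CPM in WT1 to WT3). Of 8 periportal markers, 3 fell (median -1.04), with sums of 7616 and 6817 CPM with APAP and of 12855 to 13861 CPM with saline. Of 5 cholangiocyte markers, 2 rose, Spp1 and Sox9 (median of the 5, 2.74). The list summed to 47.1 to 51.9 CPM with saline and to 347 and 355 CPM with APAP. Spp1 alone made up 276 and 313 CPM of the APAP sums. Krt19, Krt7 and Epcam were higher without overlap but were not called. In APAP replicate 3, Krt19 (2.72 CPM) and Epcam (2.41 CPM) barely exceeded their highest saline values, 2.54 and 2.34 CPM. In APAP replicate 1 these genes reached 23.6 and 8.23 CPM. All 5 neutrophil markers tested rose (median 4.57), from sums of 1.93 to 4.28 CPM to 92.6 and 58.7 CPM, while Ly6g, too low to be tested, had 4 and 8 counts after APAP and 0 in all saline libraries. Also, 2 of 4 monocyte markers rose (median 1.08). Among the lists of Kupffer, stellate, sinusoidal endothelial and lymphocyte markers, 0 genes were called. The part of these markers in the change of the transferases was not tested.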

How the data were processed

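Bulk RNA-Seq counts of 5 liver libraries, 2 of APAP mice and 3 of saline mice, were analysed. The authors prepared libraries with an oligo(dT)-primed SMARTER mRNA kit, sequenced them on an Illumina NovaSeq instrument and aligned reads with HISAT2. They deposited raw read counts per gene and library, without normalization. The submitters' processing notes name GRCm38 and mm10. Strand setting and treatment of reads that match several genes are not given in the sources used here. No value was taken from 5 further columns of FPKM.

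Low counts were removed with filterByExpr of edgeR 4.0.16 in R 4.3.3 (at least 10 counts, total of 15), libraries were scaled by TMM, and groups were compared by edgeR's quasi-likelihood test (glmQLFit, glmQLFTest) with Benjamini-Hochberg adjustment over all tested genes. "Called" means an adjusted p under 0.05. The common biological coefficient of variation was 33.3%. A count of 3 corresponded to between 0.176 and 0.269 CPM. The test was also run on counts simulated with the same dispersion for every gene, a simpler setting than these data. Alternatives were DESeq2 1.42.0, edgeR's exact test and its likelihood ratio test, scaling by library size only, by upper quartiles or by size factors, no filter beyond 1 count in any library, at least 10 counts in every library, and each library left out in turn.

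Members and lists were chosen with earlier results of these data known. The text names all 10 members, every measured gene of the other transferases and of glutathione synthesis, and, of the other pathway lists, the called genes and the most abundant one. Nfe2l2, Keap1, Ly6g, Cyp2e1 and Glul as centrilobular markers, and the named cholangiocyte markers were added after their values were seen. Marker lists are otherwise given by counts, medians and sums. Of the identifiers, 34344 were found in GENCODE M21, and coordinates are those of the deposited table. Python 3.11.15 and Biopython 1.88 were used for sequences. The 5 libraries differed within groups beyond counting noise (chi-square divided by its degrees of freedom, 34.8 to 73.6).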

Additional observations from a re-analysis of the deposited data

How the results depend on the processing

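Of the 10 members, 5 were called, and between 5 and 7 with another test, scaling or filter. Leaving out 1 library each gave between 2 and 7: 2 without APAP replicate 1, APAP replicate 3 or WT2, 3 without WT1 and 7 without WT3. Over all genes, 993 were called, and 1835, 1776 and 2093 with the likelihood ratio test, the exact test and DESeq2, and between 165 and 922 with 1 library left out. Of the other transferases 3 were called, 6 with the likelihood ratio test, 6 with the exact test, 7 with DESeq2, 5 with library size only, 5 without the filter, 5 with at least 10 counts in every library, and between 0 and 4 with 1 library left out. With library size only, the median log2 fold change of all genes moved from 0.03 to 0.42 and the share of called genes that were higher from 51.2% to 77.8%, and that of the members from -1.12 to -0.70. The sign of the fold change of each member was the same in all 13 alternatives. Where the alternatives changed a call, the cause was not tested. No paired analysis was possible because columns WT1 to WT3 carry no link to the numbered saline samples. With 2 APAP libraries, or 1 when the other is left out and assumed to vary like the saline group, calls near the threshold rest on little replication.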

Other observations

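Genes of APAP oxidation and conjugation other than glutathione transferases were lower as a whole list, with 7 of 7 called (median log2 fold change -2.34, edgeR's quasi-likelihood test). Cyp2e1, the main enzyme of NAPQI formation, was at 783 and 1593 CPM in the APAP livers, compared with 8353, 5265 and 4363 CPM in the saline livers, and fell by 2.34 on the log2 scale (SE 0.51, adjusted p = 0.0418). Of the other enzymes that oxidize APAP, Cyp1a2 fell by 2.88 (adjusted p = 0.0183) and Cyp3a11 fell by 2.66 (adjusted p = 0.0374) on the log2 scale. Of the genes that form glucuronides, Ugt1a1 fell by 1.57 (adjusted p = 0.0303) and Ugt1a6a fell by 1.92 (adjusted p = 0.0466). Ugt1a9, of the same family, was at 63.5 and 60.6 CPM in the APAP livers, compared with 352, 327 and 310 CPM in the saline livers, and fell by 2.41 (SE 0.24, adjusted p = 0.00433). The annotated spans of Ugt1a1, Ugt1a6a and Ugt1a9 overlap and end at the same base of chromosome 1 (88218997). Reads may therefore be split between these genes, and their calls may not be separate results. Sult1a1, a sulfotransferase, had the smallest fall of the list, by 1.40 (SE 0.27, adjusted p = 0.0302).

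Gstm1, the member with the highest mean level per kb over the 5 libraries together (Gsta3 was higher in the saline livers alone), was compared over the 5 libraries with 7873 tested genes of at least 10 CPM. The closest profiles, by the root mean square difference of centred log2 levels, were those of Asgr2 (0.0567), Sqrdl (0.0577) and Aco1 (0.0648). This is a description over few libraries in 2 groups.

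The annotated processed pseudogene Gstm2-ps1 on chromosome 5 (116632908 to 116633564, minus strand) held 648 and 735 counts with APAP and 1234, 1309 and 703 counts with saline. It was chosen after its values were seen. Of its 50-base words, 46.9% also occurred in other genes, 35.4% in Gstm1. There were 11.3 and 11.1 Gstm1 counts per Gstm2-ps1 count with APAP and 11.2, 10.8 and 11.6 with saline, so the ratio was nearly the same in all 5 libraries.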
